A study of Mus musculus with 4 samples.

Results

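Gene expression of mouse embryonic fibroblasts (MEFs) labelled Lats2 wild type (WT) was compared between a crowded, high density culture and a sparse, low density culture. Members of the comparison were all genes read by at least 1 probe whose signal passed the scanner's test against background at 1 density or more, on each array of a pair, which left 12341 of the 19729 genes named on the array. The study behind the data asked what the kinase Lats2 does to gene expression, and it used sparse, growing WT cells as a state with the Hippo pathway switched off. All groups were fibroblasts of C57BL/6J mice grown in DMEM with serum and labelled Lats2+/+ (WT) or Lats2-/- (knockout, KO), and the labels name no other treatment and no separate cultures or embryos. Low density cells were sampled subconfluent after 48 h, and high density cells after 3 to 5 days, so that time in culture changed together with density and their parts cannot be told apart. For each genotype, low and high density RNA were hybridised together on a 2-colour oligonucleotide array, and on a second array with the Cy3 and Cy5 dyes exchanged. Such a dye swap is a technical repeat. Each density is therefore 1 sample, no test was possible, and no value given here has a replicate check.

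Normal fibroblasts stop dividing when they touch their neighbours, a behaviour known as contact inhibition, and they keep their metabolism and secretion running while arrested. Crowding is read partly by the Hippo cascade, in which the kinases MST1/2 and LATS1/2 phosphorylate the coactivators YAP and TAZ and keep them out of the nucleus, where they would act with TEAD factors. Spreading and tension also set the pool of free actin, which controls the coactivators of serum response factor (SRF). A resting fibroblast is known for the matrix that it lays down, such as collagens and small proteoglycans that coat collagen fibrils.

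The values are log2 ratios of high over low density, averaged over both arrays, so that a value of 1 is a doubling at high density. A gene was counted as changed when its mean ratio was 2-fold or more in either direction and the arrays shared its sign, and only such genes are said to rise or fall. Each gene is represented by its brightest tested probe. Of 5400 genes with several tested probes, 0 had probes that changed in opposite directions, though their sizes often differed. For some changed genes another probe did not pass the rule, and not every such case is given below. Signals are spot intensities in arbitrary units, background-corrected, loess-normalized within each array and quantile-normalized in brightness between all 4 arrays, those labelled KO included. The background correction had added 50, so that values near 100 lie close to the floor and ratios of dim genes are too small. In each channel 52.8% to 56.2% of the features passed that test, here called well above background or detected, and none was saturated. The dye-swap error, the SD of an array about the mean of its pair across probes, was 0.0999 on the log2 scale. Both arrays shared 1 slide and 1 scan. The number of arrays limits the precision.

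Lats2 itself, the gene named in the labels, was measured in all channels. The signal of its brightest probe (chromosome 14, 56644080 to 56644139, mouse build mm8) was 2898 and 2869.7 at low density and 1279 and 1356 at high density. All 4 Lats2 probes had lower signals at high density, between -1.13 and -0.56, of which 2 passed the 2-fold rule. Between the genotype labels, 3 of the 4 probes were higher on the arrays labelled KO at both densities, which goes against the label, and 1 was lower. Where the probes lie relative to the deleted part was not determined here, and a probe outside it checks nothing. The cells are therefore called labelled WT and labelled KO throughout. Fibroblast markers were present, with all 13 of 13 well above background at high density and 12 in each low density channel. Their summed signal ran from 436883 to 488373 at low density and from 493996 to 547674 at high density. Of the markers of other cell types, 5 of 10 macrophage, 7 of 8 endothelial, 6 of 8 epithelial, 4 of 5 erythroid and 4 of 6 adipocyte markers were not well above background in any channel, among them Ptprc, Pecam1, Cdh5, Epcam and Adipoq. More were detected in the remaining lists, where 4 of 8 neural, 3 of 8 skeletal muscle, 2 of 6 chondrocyte, 2 of 7 smooth muscle or pericyte and 1 of 4 measured osteoblast markers were not well above background in any channel. The chondrocyte markers summed to 7816 to 8344 at low and 7175 to 7365 at high density. Most of that was Col2a1, the collagen of cartilage, with 7319.7 and 6915 at low density and 5226 and 5012 at high density (-0.48, its other probe -1.88). The skeletal muscle markers summed to 9142 to 9272 at low and 2477 to 2600 at high density. Most of that was Acta1 (8696 and 8510 at low, 2031 and 1872 at high density), and Tnnt3, Mylpf and Chrna1 did not pass the 2-fold rule. The part of cells of these other types in the results was not tested.

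Of the 12341 genes tested, 2135 (17.3%) changed with density, and 1283 were higher (10.4%) and 852 lower (6.9%) in the crowded culture. These shares are the background for each group of genes below. Larger changes went mostly upwards, as 98 genes rose and 19 fell at least 8-fold, and 27 rose and 3 fell at least 16-fold. Among 22591 probes, 3012 changed (13.3%) and 57.1% of them were higher, but this share was 43.9% when each array was centred on its median in place of loess normalization, so that the more frequent direction depended on the scaling. The median of all genes was 0.05, and -0.08 under median centring. When genes were sorted by brightness into 5 bins of equal size, higher calls made up 16.1% of the second dimmest bin and 6.77% of the brightest, while lower calls made up 2.39% of the dimmest and 9.12% of the brightest. The part of brightness in the counts was not tested.

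**Figure D1:**
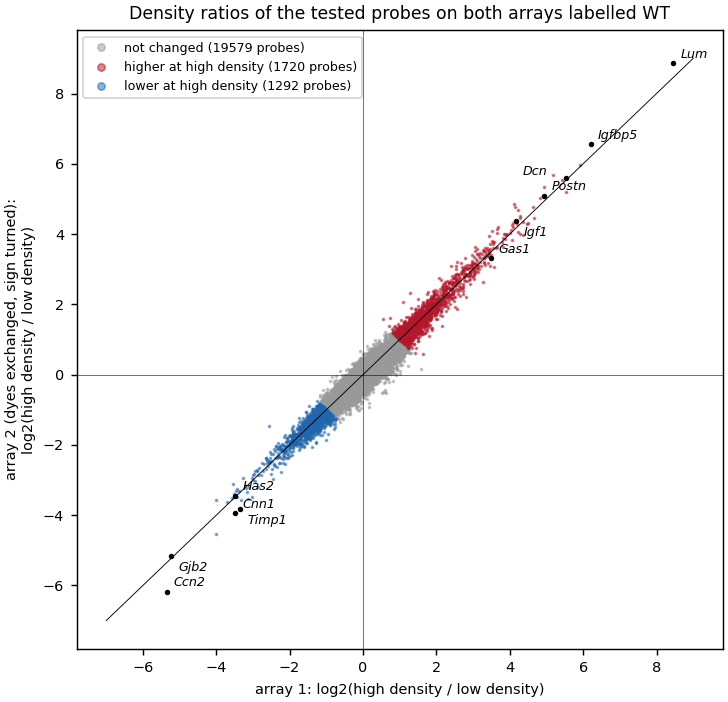
Log2 ratios of high over low density of the 22591 tested probes on the first array (x axis) and on the array with exchanged dyes (y axis, sign turned), with named genes in black. The arrays gave like ratios over the whole range (Pearson's r across probes, which are not independent replicates, was 0.966), and the rises reached further than the falls.

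Genes were grouped in 56 lists by role, beside 11 lists of cell type markers. A list is given a direction where its median lay on the same side of the median of all genes on both arrays by more than the dye-swap error. That error is technical and leaves out the spread between cultures, so a direction is a description of these 2 arrays and a low bar. By this measure 54 of 62 lists with a median had a direction, and 41 kept it under median centring. Of those that did not, no direction is given for the lists of p53 targets, ERK feedback, the Hippo cascade, elastic fibres, hyaluronan, Notch, retinoids, fatty acid synthesis, oxidative phosphorylation, ribosomal proteins and the secretory pathway. With no filter on signal, which adds members near background, 39 of the 54 kept it. Beside some of those above, the lists of network collagens, basement membranes, ADAMTS proteases, TGF-beta and BMP signalling, Hedgehog, complement, chemokines, and the skeletal and tendon lineages lost it there, so that their counts and medians below hold for detected members. In bulk RNA of this kind, fewer cells expressing a gene and less RNA per cell cannot be told apart, and this applies to every group.

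**Figure D2:**
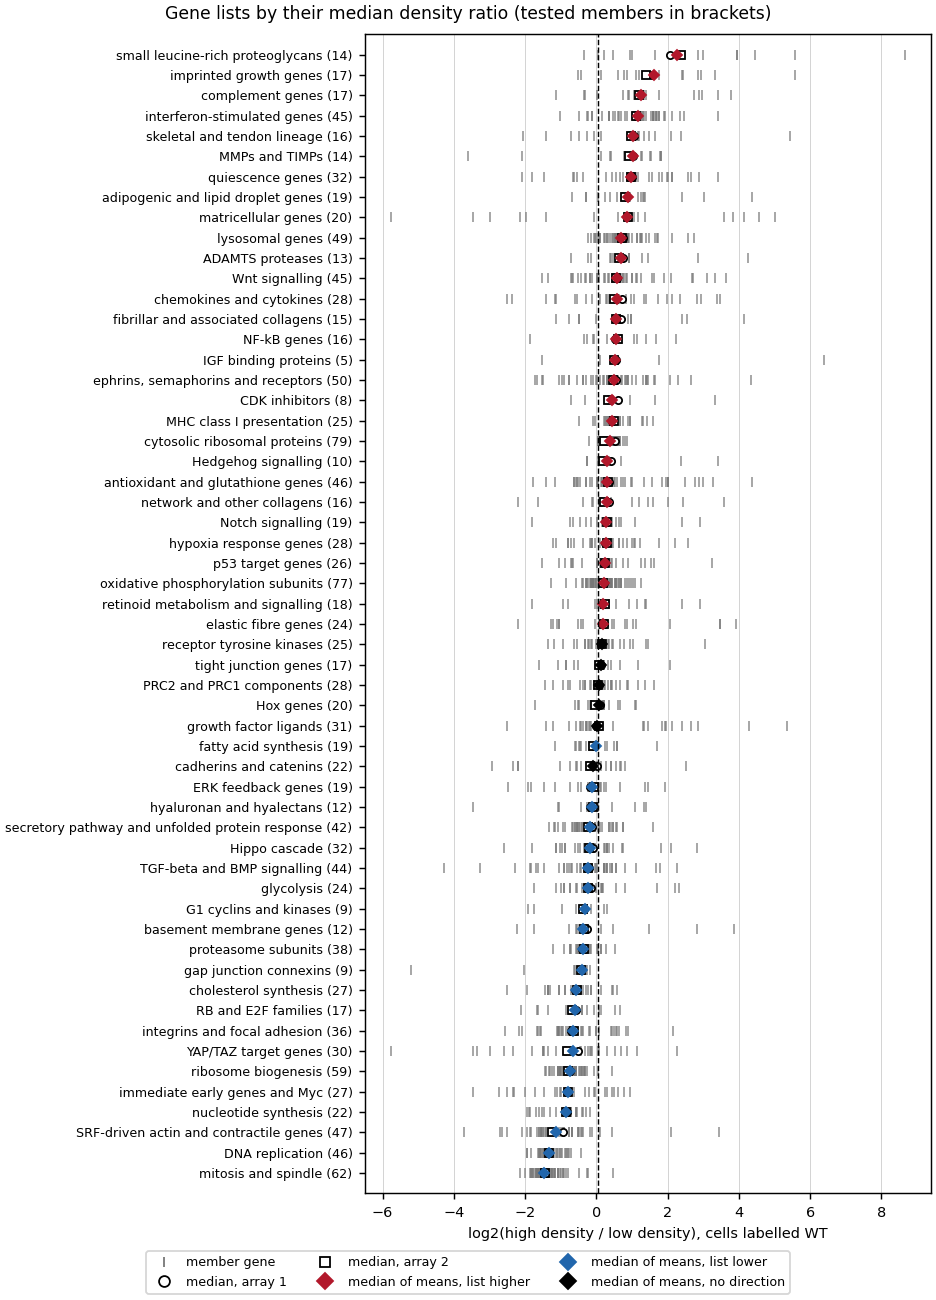
Density ratios (log2, x axis) of the tested members of the 56 lists, ordered by list median, with the median on each array and of the means, a dashed line at the median of all genes, and red, blue or black diamonds for lists higher, lower or without a direction under the main normalization. Lists of mitosis and DNA replication lie lowest, with medians of -1.48 and -1.34, and small leucine-rich proteoglycans highest, with 2.25, and the median of each list is close on both arrays.

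Genes of cell division fell almost as a block. Of 62 tested genes of mitosis and the spindle, 52 fell and 0 rose (background 6.9% lower), with a median of -1.48. Of 46 DNA replication genes, 37 fell and 0 rose, with a median of -1.34, and all 46 had ratios below 0. The signal of Cdk1, the kinase that drives entry into mitosis, was 9133 and 8612 at low density and 2574 and 2502 at high density, a log2 ratio of -1.81. Mcm3, a subunit of the replicative helicase, gave 17482 and 16104 at low density and 6261 and 4712 at high density, a ratio of -1.63. At both genes the low density signals were more than 2-fold above the high density signals on either array. The largest falls of these groups were those of Anln, an actin and septin scaffold of the cleavage furrow (-2.15), Top2a, the topoisomerase that untangles chromosomes (-2.02 and -1.99 on the single arrays), and Cdc45, which activates the helicase at origins (-1.95). Ratios lay between -1.95 and -0.42 for replication and between -2.15 and 0.48 for mitosis, where 61 of 62 were below 0. Of 22 nucleotide synthesis genes 9 fell and 0 rose, led by Tk1 (-1.96), Rrm2 (-1.89) and Rrm1 (-1.87), which supply deoxyribonucleotides for replication.

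Regulators above these genes were less uniform. Among 9 G1 cyclins and kinases only the E-type cyclins fell, Ccne2 by 1.93 and Ccne1 by 1.75, whereas the growth factor sensor Ccnd1 gave -0.32 and did not pass the rule. In the RB and E2F families 4 of 17 fell, namely the repressor E2f7 (-2.12), the pocket protein Rbl1 (-1.66), and Lin9 (-1.65) and Lin54 (-1.37) of the MuvB core that directs cell cycle genes. Lin9 had other probes at ratios up to -0.19, and with the mean of its probes it did not pass. E2f1 and Rbl2, a pocket protein of resting cells, gave -0.40 and 0.65, without passing the rule. The inhibitors of cyclin-dependent kinases were led by Cdkn1c, encoding p57, whose signal rose from 445 and 467 to 4415 and 4806 (3.34). Cdkn2a, which encodes p16 and p19ARF, rose by 1.64, and Cdkn2b and Cdkn2d, with 0.93 and -0.71, did not pass.

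Genes known from quiescent cells moved the other way. Of 32 such genes 15 rose and 3 fell, against backgrounds of 10.4% and 6.9%, and the list median was 0.96. Gas1, a growth arrest gene first found in serum-starved fibroblasts, gave 1183 and 1258 at low density and 13274 and 12532 at high density, a ratio of 3.40. Its high density signals were well apart from those at low density on both arrays. Sesn3, a stress protein that restrains growth signalling, rose by 2.89 (its probes ranged from 0.67 to 2.89), Gas6, a ligand of the TAM receptors, by 2.64, and Ndrg1 by 2.56. Among 26 target genes of p53, 5 rose and 2 fell (19.2% and 7.69%), with Trp53inp1 (3.25) and Bbc3 (1.63) highest and the proapoptotic Pmaip1 (-1.53) lowest. Trp53 itself (-0.68), Mdm2 (0.33) and Ccng1 (0.74) did not pass.

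The promoters of the falling cell cycle genes are shown because short motifs recur in them. Promoter windows of 300 bases (250 before to 50 after the start) were taken from RefSeq (GRCm38.p6). They were searched on both strands for the CHR element TTTGAA and the CCAAT box, which are bound by MuvB complexes and NF-Y, and for E2F sites, written TTTGGCGC, TTTCGCGC or TTTCCCGC. Of 56 windows of mitosis genes, 66.1% held TTTGAA and 69.6% held CCAAT, against 17.9% and 37.4% of all 32851 windows. An E2F site was in 31.8% of 44 windows of replication genes, in 10.7% of those of mitosis genes and in 1.84% of all. Within each list, genes with and without the motif had like ratios, with medians of -1.45 and -1.55 for the CHR element among mitosis genes and -1.28 and -1.35 for the E2F site among replication genes. A match describes the letters of the window and not a bound site. The windows of Cdk1 (chr10:69352863-69353162, minus strand) and Mcm3 (chr1:20820263-20820562, minus strand) follow, 5′ to 3′, with TTTGAA and the CCAAT box, which reads ATTGG on the other strand, in capitals in the first and E2F sites in the second.
Cdk1: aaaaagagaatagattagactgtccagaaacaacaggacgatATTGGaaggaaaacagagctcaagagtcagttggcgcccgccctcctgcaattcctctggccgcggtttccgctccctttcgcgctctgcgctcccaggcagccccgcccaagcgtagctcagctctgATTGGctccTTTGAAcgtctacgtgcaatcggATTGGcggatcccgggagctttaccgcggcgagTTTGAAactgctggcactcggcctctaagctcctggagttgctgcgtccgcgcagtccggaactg
Mcm3: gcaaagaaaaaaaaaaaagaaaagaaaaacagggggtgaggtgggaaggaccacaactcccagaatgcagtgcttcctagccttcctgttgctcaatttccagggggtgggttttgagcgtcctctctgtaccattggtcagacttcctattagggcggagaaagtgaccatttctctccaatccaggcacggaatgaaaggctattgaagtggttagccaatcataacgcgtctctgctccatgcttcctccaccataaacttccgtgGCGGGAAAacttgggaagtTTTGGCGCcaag

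Several immediate early genes, which serum switches on within minutes, were lower in crowded cells. Of 27 immediate early and Myc genes 12 fell and 0 rose, with a median of -0.78. Ptgs2, the inducible prostaglandin synthase, gave 1542 and 1647 at low density and 134 and 156 at high density, a ratio of -3.46. The transcription factor genes Maff (-2.74), Mycn (-2.33) and Myc (-1.10) fell as well, but Fos, Egr1 and Fosl1 gave 0.61, 0.78 and -0.86 and did not pass. The classical members thus did not move as one. Phosphatases that curb ERK signalling were also lower, with Dusp2 at -2.49, Dusp4 at -1.91 and Dusp1 at -1.83, whereas Spry2 (its probes ranged from 0.09 to 1.45, and their mean did not pass) and Etv1 rose by 1.45 and 1.92 and Dusp6 gave -0.75. Over the whole ERK feedback list 5 of 19 fell and 3 rose.

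Growth factor ligands changed in both directions, with 12 of 31 higher and 3 lower. Ptn, encoding the heparin-binding factor pleiotrophin, rose most. Its signal was 2844 and 5396 at low density and 130393 and 197823 at high density, with ratios of 5.52 and 5.20 on the single arrays. Igf1, the circulating and local growth factor that acts with insulin signalling, gave 326 and 311 at low density and 5895 and 6427 at high density, and its 3 probes ranged from 2.73 to 4.27. Hgf, a ligand made by mesenchymal cells for epithelial MET, was detected at high density only and was at least 5.23-fold higher, with another probe at 1.14. Hbegf, an EGF family ligand, fell by 2.49 and Fgf7 gave -0.57. Among 25 receptor tyrosine kinases 4 rose and 2 fell (16% and 8%). Pdgfra rose from signals of 113 and 82 to 893 and 710 (3.05), and Pdgfrb (1.44) and Fgfr1 (1.41) rose too, whereas Axl, the receptor of Gas6, fell by 1.37. Of 5 binding proteins of insulin-like growth factors, Igfbp5 (6.38) and Igfbp4 (1.77) rose, Igfbp7 fell by 1.53 and Igfbp2 gave 0.52. The 2 Igfbp5 probes disagreed in size, 1.09 to 6.38.

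Imprinted genes, many of which govern fetal growth, were mostly higher in the crowded culture. Of 17 tested, 11 rose and 0 fell (background 10.4% higher), with a median of 1.61. The paternally expressed Igf2 gave 226 and 206 at low density and 1485 and 1627 at high density (2.85), and Mest gave 831 and 859.5 at low density and 6386 and 6463 at high density (2.93). Higher on both arrays were also the neighbouring H19 (1.20, under the rule with median centring), the zinc finger gene Peg3 (1.61), Dcn (5.57) and, as above, Cdkn1c. Genes expressed from the maternal copy (H19, Cdkn1c) and from the paternal copy (Igf2, Mest, Peg3) were thus both among the rises. The list was partly of genes that other lists hold, such as Dcn among the proteoglycans.

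Most genes of the Hippo cascade itself did not pass the rule. Of 32 genes of the cascade 3 rose and 5 fell (9.38% and 15.6%). Yap1 gave 406 and 405 at low density and 449 and 350.1 at high density (-0.03) and Wwtr1, which encodes TAZ, 0.46. Neither passed the rule, and the signals of Yap1 overlapped between densities. The atypical cadherins upstream of the cascade rose, Fat4 by 2.82 and Dchs1 by 2.11 (its probes ranged from 0.31 to 2.11), as did the junction scaffold Amot (1.82), while Ajuba, a LIM protein that inhibits LATS kinases, fell by 2.58. Of 30 target genes of YAP and TAZ, a list that shares Ajuba, Lats2 and a few others with the cascade, 12 fell and 2 rose, with a median of -0.66. Ccn2, the connective tissue growth factor, gave 202693 and 145366 at low density and 4956 and 2008 at high density, a ratio of -5.77 (-5.35 and -6.18 on the single arrays). Ankrd1, a nuclear ankyrin repeat protein, gave 23762 and 26195 at low density and 2713 and 2246 at high density. For both, every low density signal was above every high density signal.

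The TEAD motif GGAATG, searched on both strands, was in 39.1% of 23 promoter windows of these target genes and in 14.7% of all windows. Of the 9 target genes with a match, 8 fell and 0 rose, with a median of -1.80. Of the 12 with a window and no match, 1 fell and 2 rose, with a median of -0.04. The difference between these small groups was not tested. The window of Ankrd1 (chr19:36119795-36120094, minus strand) is given as the target with the largest fall among those with a match, with GGAATG in capitals.
Ankrd1: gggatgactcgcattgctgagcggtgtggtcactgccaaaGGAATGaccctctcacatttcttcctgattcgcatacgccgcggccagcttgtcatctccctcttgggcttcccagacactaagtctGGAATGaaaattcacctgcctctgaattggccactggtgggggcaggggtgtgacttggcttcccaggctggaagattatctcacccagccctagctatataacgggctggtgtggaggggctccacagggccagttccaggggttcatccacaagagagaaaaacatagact

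Actin and contractile genes fell with the YAP and TAZ targets. Of 47 genes known to depend on SRF, 25 fell and 2 rose, with a median of -1.14. Cnn1, the smooth muscle calponin, gave 45105 and 41064 at low density and 4048 and 2675 at high density (-3.71). Tagln, encoding transgelin, fell by 2.66, Acta2, smooth muscle actin, by 1.85 and Fhl1 by 2.70, all from very bright signals at low density. Srf itself fell by 1.52. Mylk, the kinase of the myosin light chain, went against the group, with signals of 462 and 523 at low density and 5228 and 5563 at high density (3.46), and its other probe rose as well. The markers of smooth muscle or pericytes had summed signals of 166955 to 211605 at low and 42422 to 62316 at high density. Most of that was Acta2 (198697 and 153539 at low, 59553 and 39646 at high density), which is on both lists. The other tested markers, Mcam (-3.20) and Cspg4 (-1.89), fell as well. Des and Kcnj8 of that marker list were not well above background in any channel, and the part of such cells in the result was not tested.

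The CArG box, the motif that SRF binds, was in 18.4% of 49 promoter windows of this list and in 1.63% of all windows (both strands). Of the 8 genes with a match 5 fell and 0 rose, and of the 31 without one 15 fell and 1 rose. The window of Srf (chr17:46556113-46556412, minus strand) holds a pair of CArG boxes, in capitals, and is shown because the gene is on its own list of targets.
Srf: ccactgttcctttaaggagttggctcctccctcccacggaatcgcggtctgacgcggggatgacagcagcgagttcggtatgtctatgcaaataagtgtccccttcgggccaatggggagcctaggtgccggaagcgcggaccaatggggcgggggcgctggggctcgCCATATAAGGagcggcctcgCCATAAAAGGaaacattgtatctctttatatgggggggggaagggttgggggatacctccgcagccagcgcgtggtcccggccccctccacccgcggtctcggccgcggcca

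**Figure D3:**
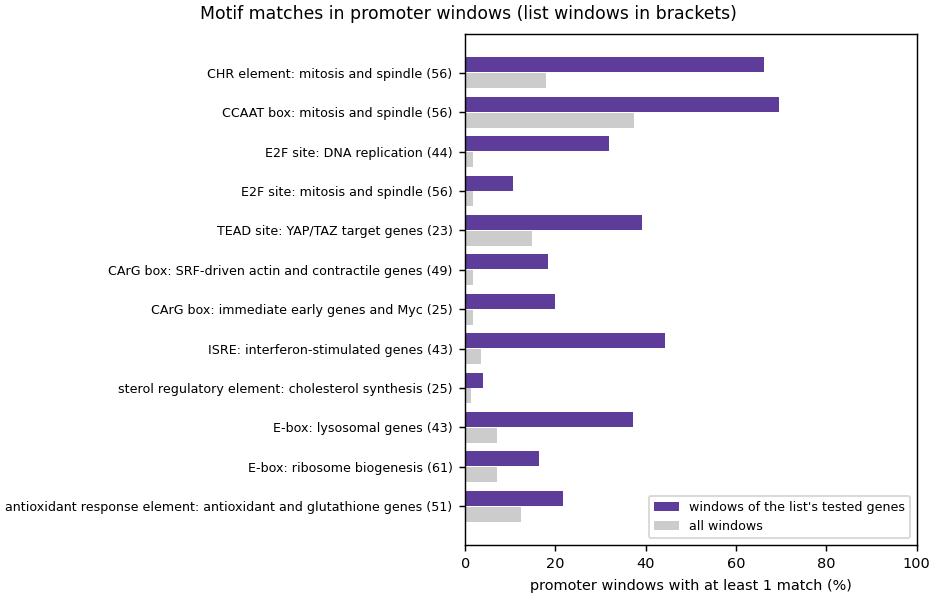
Share of promoter windows (x axis, percent) with at least 1 match of a motif, among windows of the tested genes of a list (purple, number in brackets) and among all 32851 windows (grey). In each of the 12 pairs the list's share is above that of all windows, from 69.6% against 37.4% for the CCAAT box in mitosis genes to 4% against 1.24% for the sterol regulatory element (TCACNCCAC) in cholesterol genes, where 1 of 25 windows held it.

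Adhesion to the substrate was lower for a number of its parts. Of 36 integrin and focal adhesion genes 12 fell and 1 rose, with a median of -0.66. Itga5, a chain of the fibronectin receptor, gave 4265 and 3836 at low density and 896 and 886 at high density (-2.18), Itgb3 (-2.10, its probes -2.10 to -0.50) and the adaptor Lims2 (-2.56) fell alike, and Itga9 rose by 2.15. The ligand Fn1, fibronectin, fell by 1.60. Contacts between cells were mixed. Among 22 cadherins and catenins 5 fell and 1 rose. The desmosomal Pkp1 fell by 2.93 and Pkp2 by 2.20, Cdh2 (N-cadherin) gave -0.22, and Cdh11, the cadherin of mesenchymal cells, rose with 3240.4 and 3609 at low density and 20306 and 19031 at high density (2.52). Its probes ranged from 0.77 to 2.52. Among 9 connexins and pannexins 2 fell and 0 rose, Gjb2 among them (-5.20, its probes -5.20 to -1.25), and Gja1, the main fibroblast connexin 43, gave -0.19. Of 17 tight junction genes 2 rose and 2 fell. Cldn1 was detected at high density only and at least 4.06-fold higher, with another probe at 1.71, and the scaffold gene Magi2 rose by 1.17. Of 50 genes in a list of ephrins, semaphorins and their receptors, which also holds the Slit ligand Slit3, 12 rose and 5 fell. The largest rises were those of Slit3 (4.35), Efna5 (2.65, its probes 0.72 to 2.65), Plxna2 (2.29) and Sema3b (2.07). Efnb2 and Epha2 gave 0.73 and -0.90 and did not pass.

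Matrix genes were among the largest rises. Of 14 small leucine-rich proteoglycans, which bind collagen and set the width of its fibrils, 8 rose and 0 fell, with a median of 2.25. Lum, lumican, went from signals of 114 and 83.9 to 40187 and 38934, a ratio of 8.66, the largest of all genes tested. Dcn, decorin, gave 393 and 456 at low density and 18286 and 21981 at high density (5.57), and Ogn, osteoglycin, rose by 3.95. Epyc and Aspn were detected at high density only, at least 20.4- and 13.7-fold higher, with another Epyc probe at 2.74. Omd, with 0.99, stayed just under the rule.

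Fibrillar collagens followed only in part. Of 15 genes 3 rose and 1 fell. Col3a1, the collagen of elastic and young tissue, gave 4749 and 6868 at low density and 92388 and 110129 at high density (4.14), but its 3 probes ranged from 0.43 to 4.14. The main fibrillar chains Col1a1 and Col1a2 were bright at both densities and gave 0.50 and 0.56, under the rule. Col11a1 rose by 2.55, Col14a1 was at least 5.18-fold higher, and Col5a1 fell by 1.13, though not with the mean of its probes. Among 16 network and other collagens 6 rose, such as Col8a2 (3.58) and Col26a1 (2.42), and 2 fell, one of them Col7a1, the anchoring fibril collagen (-2.19). Col4a1, of basement membranes, and Col6a3, of beaded microfibrils, gave -0.12 and -0.37.

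Elastic fibre genes divided evenly, with 6 of 24 higher and 6 lower. The microfibril proteins Mfap4 (3.92) and Mfap2 (3.48) and the fibulin Efemp1 (3.47) rose, whereas Fbln2, another fibulin, fell from signals of 77206 and 65089 to 18626 and 12913 (-2.19). Eln, Fbn1 and the crosslinking enzyme Lox gave 0.50, -0.38 and -0.52, with opposite signs on the arrays for Fbn1 (0.16 and -0.91). Matricellular genes moved far in both directions. Postn, periostin, gave 336 and 287 at low density and 10315 and 9782 at high density (5.02), and Tgfbi (4.56), Spon2 (4.15) and Sparcl1 (3.84) rose, while Thbs1, thrombospondin, fell by 3.45 and the CCN proteins Ccn1 and Ccn5 fell by 2.98 and 2.15. In all 8 of 20 rose and 6 fell. Both shares are above the background. Of 12 hyaluronan and hyalectan genes 3 rose and 3 fell, with a median of -0.13. Has2, a synthase of hyaluronan, gave 5494 and 5754 at low density and 489 and 528 at high density (-3.47), and its receptors Cd44 and Hmmr fell by 1.05 and 1.07, while the hyaluronidase Hyal1 (1.34), the hyaluronan-linking Tnfaip6 (1.09, under the rule with median centring) and the proteoglycan Vcan (a fold of 2.63, though not with the mean of its probes) rose. Among laminins and nidogens Lama4 (3.85), Nid2 (2.84) and Lama2 (1.47) rose, and Lama5, a chain of epithelial laminins, fell by 2.23.

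Matrix proteases and their inhibitors also changed. Of 14 MMPs and TIMPs 7 rose and 2 fell, and of 13 ADAMTS genes 4 rose and 0 fell. Timp1, an inhibitor of metalloproteases, gave 215115 and 166987 at low density and 21221 and 11696 at high density (-3.59), one of the largest falls, and Timp3 gave 0.38. Mmp2, the gelatinase, rose by 1.50 and its membrane inhibitor Reck by 1.80, and Mmp3 was at least 3.52-fold higher. Adamts1, a protease that cuts versican, gave 1989 and 2255 at low density and 36478 and 44319.9 at high density (4.25). Adamts9 and Adamts5 rose by 2.85 and 1.46, with other Adamts9 probes down to 0.43.

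**Figure D4:**
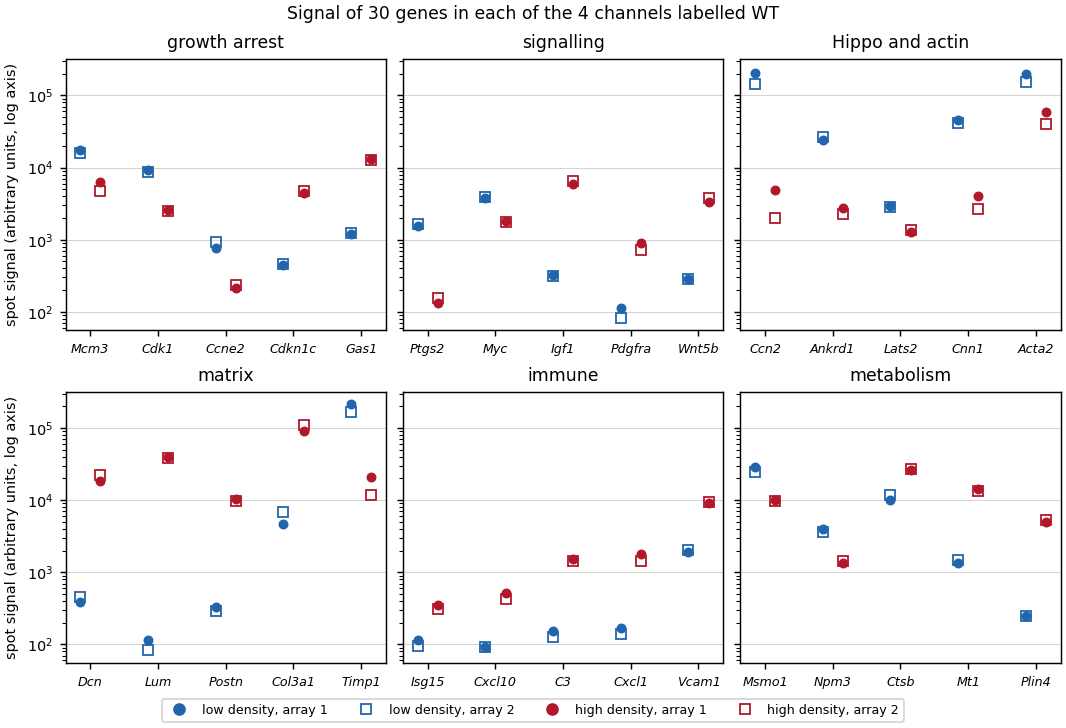
Background-corrected and normalized spot signal (arbitrary units, log axis) of 30 genes from 6 groups in each of the 4 channels labelled WT, with low density in blue, high density in red, and arrays 1 and 2 as circles and squares. Within each gene the densities do not overlap, for instance at Lum (114 and 83.9 against 40187 and 38934). The signals of the same density lie mostly close on both arrays, but those of Ccn2 at high density were 4956 and 2008. The genes were picked for display after their values were seen.

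TGF-beta and BMP signalling had 9 of 44 genes lower and 4 higher, with a median of -0.24. Inhbb, an activin chain, gave 3636 and 4199 at low density and 801 and 802 at high density (-2.29, its probes -2.29 to -0.66). The ligands Tgfb2 (2.28) and Bmp4 (1.78) rose. Tgfb1 (0.22) and the BMP target Id1 (-0.82) did not pass. Wnt genes tended upwards, with 14 of 45 higher and 2 lower and a median of 0.59. The ligand Wnt5b gave 284 and 285 at low density and 3341 and 3762 at high density (3.64), and the receptor Fzd1 1132 and 1003 at low density and 9244 and 9129 at high density (3.11). The secreted inhibitors Sfrp1 and Dkk2 rose by 2.09 and by at least 6.25-fold, with another Sfrp1 probe at 0.36. Nkd1, an inhibitor that Wnt signalling itself induces, was at least 10.1-fold higher, with another probe at 0.83. Ligands, receptors and inhibitors thus all had members that rose.

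In smaller pathways the members that moved were few. Of 19 Notch genes 3 rose and 1 fell. Notch3, the receptor of mural cells, rose by 2.92 and the noncanonical ligand Dlk1 by 2.39, while the target Hes1 fell by 1.80 and Hey1 gave -0.30. Of 10 Hedgehog genes the coreceptors Boc (2.36) and Gas1 rose, and Ptch1, a target as well as the receptor, gave -0.26. Of 18 retinoid genes 5 rose and 1 fell, with the chemerin gene Rarres2 (2.91) and Aldh1a7 (2.41) up, Tgm2 (-1.80) down, and the receptor Rarb at -0.03. Aldh1a7 is a close copy of Aldh1a1, so the probe may read both.

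Interferon-stimulated genes were higher as a group. Of 45 tested, 28 rose and 1 fell (background 10.4% and 6.9%), with a median of 1.17. Isg15, a ubiquitin-like protein, gave 115 and 94.6 at low density and 354 and 314 at high density (1.67), and Cxcl10, a chemokine, 92.7 and 91.1 at low density and 523 and 424 at high density (2.36). The GTPase Igtp (3.41), Ifit3 (2.13) and Parp14 (2.47, its probes 0.62 to 2.47) rose, and Ifit1 was detected at high density only and was at least 3.01-fold higher. The interferon response element GAAANNGAAA, where N is any base, was in 44.2% of 43 promoter windows of the list and in 3.44% of all windows. Of the 18 genes with a match 13 rose and 0 fell, and of the 15 without 7 rose and 1 fell. The window of Isg15 (chr4:156200769-156201068, minus strand) is shown, with 3 overlapping matches in capitals. The array's annotation places its only tested probe on chromosome 17 (45870420 to 45870479, mm8), away from that window, so that the values above rest on the array's naming of the probe.
Isg15: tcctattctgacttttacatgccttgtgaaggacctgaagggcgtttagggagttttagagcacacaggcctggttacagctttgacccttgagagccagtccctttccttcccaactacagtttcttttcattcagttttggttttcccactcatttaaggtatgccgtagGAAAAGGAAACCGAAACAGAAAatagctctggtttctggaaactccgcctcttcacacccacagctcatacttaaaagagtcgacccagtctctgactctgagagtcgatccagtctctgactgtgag

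Antigen presentation, complement and chemokines gave a graded picture. Of 25 MHC class I presentation genes 4 rose and 0 fell. They were Psme1 (1.44), Psmb9 and Psmb8, subunits of the immunoproteasome (at least 2.46- and 2.35-fold), and H2-M3 (1.60, its probes 0.15 to 1.60), which did not pass with the mean of its probes. The classical H2-K1 and H2-D1, whose probes may read close copies, gave 0.29 and 0.23, and B2m gave 0.89. Of 17 complement genes 10 rose and 1 fell, with a median of 1.26. C3, the central component, gave 154 and 125 at low density and 1522 and 1445 at high density (3.42). The protease gene C1s1 (2.98), C4b (1.77), Clu (2.88), an inhibitor of the late steps, and Serping1 (1.26), the inhibitor of the first, rose as well, so that initiators and inhibitors of the cascade were both higher. C1s1 and C4b have close copies. Of 28 chemokine and cytokine genes 11 rose and 5 fell, with the neutrophil-attracting Cxcl15 (3.47), Cxcl1 (3.38) and Cxcl5 (2.81) and Ccl5 (2.93) on top. Cxcl12 was bright at both densities (0.53), and Ccl2 (0.82) and Il6 (0.63) did not pass. Of 16 NF-kB genes 5 rose and 1 fell, namely the adhesion molecule Vcam1 with 1891 and 2022 at low density and 9135 and 9339 at high density (2.24) among the rises and the inhibitor Tnfaip3 (-1.88) as the fall. Macrophages, which express many of these genes, had 4 of 10 markers well above background in each channel, and the list's summed signal was 1277 to 1329 at low and 1226 to 1264 at high density. Ptprc, Adgre1, Itgam, Tyrobp and Aif1 were not well above background anywhere. Lyz2 was detected at high density only and Csf1r at low density only, and no macrophage marker passed the rule. Their part in these results was not tested.

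Sterol and lipid genes diverged. Of 27 cholesterol genes 9 fell and 0 rose, with a median of -0.58. Msmo1, an enzyme of the late steps, gave 29153 and 24572 at low density and 10129.7 and 9763 at high density (-1.43), and Cyp51, another, fell by 1.36, while the early enzyme Hmgcs1 gave -0.29. Of 19 fatty acid synthesis genes only Lpin1 (1.71) rose and Fads2 (-1.16) fell, and Fasn, Scd1 and Scd2 gave -0.59, -0.29 and 0.01. Of 19 adipogenic genes 8 rose and 0 fell, with a median of 0.88. The lipid droplet coat Plin4 gave 251 and 246 at low density and 4920.0 and 5359 at high density (4.37), and Apoe (3.02), Fabp4 (1.37) and the early factor Cebpa (1.17) rose, while Pparg, the master regulator of adipocytes, gave 0.76. Adipoq, Plin1, Cidec and Lpl, markers of adipocytes, were not well above background in any channel.

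Energy metabolism moved little as a whole. Of 24 glycolysis genes 3 rose and 3 fell. The glucose transporter Slc2a1 and hexokinase Hk2, which begin the pathway, fell by 1.14 and 1.74, the former not without the second array, and the lactate dehydrogenase genes parted, with Ldha at -0.75 and Ldhb risen by 2.33. Pdk1, a kinase that inhibits pyruvate dehydrogenase, and Eno2 rose by 2.20 and 1.70. Of 28 hypoxia response genes 6 rose and 2 fell, among them Ddit4 (1.76), Bnip3 (1.08) and Bnip3l (1.23), of which the latter pair did not pass under median centring. Vegfa (-0.16) and Car9, not well above background at low density, did not pass. Of 77 subunits of oxidative phosphorylation 3 rose, all of complex I, and 1 fell, the electron carrier Cycs (-1.27), and the rises (Ndufa13 1.26, Ndufb11 1.07, Ndufv3 1.02) were lost under median centring.

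Protein synthesis and breakdown showed narrow shifts. None of 79 cytosolic ribosomal protein genes changed by the rule. Their ratios lay between -0.20 and 0.85, with a median of 0.39 that was not set apart from all genes under median centring. The nucleolar factors that assemble ribosomes were lower instead. Of 59 ribosome biogenesis genes 18 fell and 0 rose (background 6.9% lower), with a median of -0.75 and 57 below 0. Polr1b, a subunit of RNA polymerase I, gave 755 and 856 at low density and 349.9 and 261 at high density (-1.41), and the histone chaperone Npm3 (-1.43), Lyar (-1.32) and Bysl (-1.31) fell, while nucleolin, Ncl, gave -0.91. Of 38 proteasome subunits 1 fell, Psmd8 (-1.21), although 32 had ratios below 0 and the median was -0.38. Of 42 genes of the secretory pathway and the unfolded protein response 4 fell and 1 rose. The stress-induced Ddit3 rose by 1.58, the glutathione-degrading Chac1 (-1.33), the sensor Atf6 (-1.19) and the chaperone Hyou1 (-1.17) fell, and Hspa5, Xbp1 and the collagen chaperone Serpinh1 gave -0.33, 0.05 and -0.14.

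Lysosomal genes were higher. Of 49 tested, 15 rose and 0 fell (background 10.4% higher), with a median of 0.70 and 45 above 0. Ctso, a cysteine protease, gave 183 and 149 at low density and 1236 and 971 at high density (2.73). The membrane protein Lamp2 gave 6423 and 8115 at low density and 30217 and 32705 at high density (2.12), with other probes down to 0.25, and the protease Ctsf rose by 2.58. The abundant proteases Ctsd and Ctsl gave 0.77 and 0.78 and did not pass. The E-box CACGTG, a core of the site bound by TFEB and related factors, was in 37.2% of 43 lysosomal promoter windows, in 16.4% of 61 windows of ribosome biogenesis genes, which the E-box factor Myc is known to bind, and in 7.15% of all windows (both strands). Among lysosomal genes with a match 3 of 16 rose, and among those without 9 of 23 rose, with medians of 0.68 and 0.88. The window of Arsa, encoding arylsulfatase A (chr15:89477375-89477674, minus strand), is shown as an example, with the E-box in capitals.
Arsa: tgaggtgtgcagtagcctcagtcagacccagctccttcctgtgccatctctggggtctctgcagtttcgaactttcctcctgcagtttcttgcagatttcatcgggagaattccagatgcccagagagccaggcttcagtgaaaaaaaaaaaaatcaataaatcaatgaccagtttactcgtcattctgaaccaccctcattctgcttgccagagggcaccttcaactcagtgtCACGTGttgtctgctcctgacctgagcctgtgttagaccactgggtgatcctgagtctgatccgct

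Antioxidant genes did not move as one group. Of 46 tested, 13 rose and 3 fell. Selenop, the plasma selenium carrier, gave 1111 and 1325 at low density and 24532 and 26028 at high density (4.38). The metallothioneins Mt1 and Mt2, small metal-binding proteins, rose by 3.29 (its probes 1.43 to 3.29) and 3.00, and the glutathione transferase Gstm1 by 2.87. These belong to families of near-identical members, so their probes may read more than 1 gene. Nqo1, a standard target of the antioxidant factor NRF2, fell by 1.77, and Hmox1, another target, stayed just under the rule. The antioxidant response element TGACNNNGC was in 21.6% of 51 windows and in 12.4% of all. The window of Mt1 (chr8:94178839-94179138, plus strand) holds 3 metal response elements, written TGCGCNC or TGCACNC and searched on both strands, in capitals.
Mt1: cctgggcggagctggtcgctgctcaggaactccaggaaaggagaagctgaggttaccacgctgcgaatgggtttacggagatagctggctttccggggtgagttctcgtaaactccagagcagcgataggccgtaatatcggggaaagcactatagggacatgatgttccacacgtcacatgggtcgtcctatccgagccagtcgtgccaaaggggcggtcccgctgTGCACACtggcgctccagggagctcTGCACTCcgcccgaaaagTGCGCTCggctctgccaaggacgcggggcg

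Chromatin regulators and genes of positional identity mostly did not pass. Of 28 Polycomb components 3 rose and 2 fell, near the background. Ezh2, the methyltransferase of PRC2, gave 2023 and 3055 at low density and 857 and 1309.7 at high density (-1.23), and Pcgf5 fell by 1.44, though not with the mean of its probes, while Cbx6 (1.62) and Phf1 (1.38) rose. Of 20 Hox genes, which hold positional identity, 17 did not pass. Hoxa2 (1.11) and Hoxa7 (1.09) rose, though neither passed under median centring, and Hoxb9 fell by 1.73. Of the skeletal and tendon lineage genes 8 of 16 rose and 2 fell (background 10.4% and 6.9%), with a median of 1.04. Phex, a peptidase of bone cells, gave 133 and 96.1 at low density and 4791 and 4972 at high density (5.43). Scx, the tendon factor (2.09), the matrilin Matn2 (2.37) and Sox9 (1.47) rose, Msx2 fell by 2.06, and Runx2, the osteoblast factor, gave 0.14. Detected markers of other tissues changed only in part. By the rule 0 of 5 macrophage, 0 of 2 epithelial and 0 of 1 endothelial markers changed, and 1 of 4 each of chondrocyte and skeletal muscle markers. Of 4 neural markers tested 2 rose and 2 fell. Nes, an intermediate filament of neural and other progenitors, and the neuronal tubulin Tubb3 fell by 2.20 and 1.20, while the neuronal Stmn2 and Map2 rose by 1.23 and 1.38, Map2 not with the mean of its probes. Acta1, skeletal actin, fell by 2.14. The summed signal of the neural markers was 11327 to 11548 at low and 4077 to 4082 at high density. Most of it was Nes (9609 and 9838 at low, 2139 and 2107 at high density). Sox2, Dcx, Gfap and Elavl3 among these markers were not well above background in any channel.

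Outside the lists, the leading rises and falls among genes detected in every channel were named. Penk, which encodes the enkephalin precursor, gave 329 and 341 at low density and 19976 and 21118 at high density (5.94). The membrane protein gene Lrrn3 rose by 5.48, Cables1, a partner of cyclin-dependent kinases, by 4.91, Ecrg4 by 4.70 and Ptchd1 by 4.48. The calcium-binding S100b (4.46), the matrix gene Sned1 (4.40, its probes 0.43 to 4.40), Gpm6b (4.40), the methyltransferase Inmt (4.17) and the stretch-gated channel Piezo2 (4.16, its probes 0.73 to 4.16) followed. Of these, S100b, Gpm6b and Penk are best known from nervous tissue. The glutamate transporter Slc1a6 gave 10306 and 9067 at low density and 795 and 728 at high density (-3.67), and the falls went on with the actin-bundling Aif1l (-3.54), Pbp2 (-3.35), the natriuretic peptide Nppb (-3.33) and the cardiac troponin Tnnt2 (-3.24). Gask1b, Tmeff2, Efhd1 and Anxa8 fell by 3.16, 2.98, 2.89 and 2.85. Other probes of Gask1b, Tmeff2 and Efhd1 gave ratios up to -0.94, -0.77 and -0.52, under the rule. Nppb and Tnnt2 are known from heart muscle.

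Some genes were well above background at 1 density only, 399 at high and 151 at low density, so that their ratio is a lower bound. Each bound is the mean signal at the detected density over the higher of the gene's own signal and the lowest signal well above background at the other. It exceeded 2-fold for 100 and 14 genes. The largest bounds upwards, beside Epyc, Aspn and Nkd1 above, were those of the sulfotransferase Sult1a1 (at least 13.7-fold), the aminopeptidase Enpep (12.2), the transporter Abca9 (9.8), the glycogen-targeting Ppp1r3c (8.47) and Cmbl (7.55). Another Abca9 probe had a log2 ratio of 0.60, under the rule, so its bound holds for the brightest probe only. Sult1a1 had signals of 101 and 61.5 at low density and 1152 and 1054 at high density. Downwards, the protease Tll1, of the BMP1 family, was at least 5.67-fold lower, followed by 1700009N14Rik (5.45), Mcpt8 (3.4), Akr1c19 (3.35), Myct1 (2.81), Klhl30 (2.8), Mycl (2.78) and Edn1 (2.7), which encodes endothelin. Akr1c19 had a second probe at 0.55, so its direction was not settled.

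Changed genes also lay side by side on chromosomes. Runs of at least 4 neighbouring tested genes that changed in the same direction were found at 6 places, given here in mm8, the build of the array annotation. On chromosome 10, 96048969 to 97110958, Btg1, Dcn, Lum, Kera and Epyc rose, 4 of them proteoglycans. On chromosome 5, 91836379 to 91968078, the chemokine genes Cxcl5, Ppbp, Pf4, Cxcl15 and Cxcl1 rose, with ratios from 1.08 to 3.47. The imprinted cluster of Dlk1, Meg3, Rian and Mirg on chromosome 12, 109908264 to 110189192, rose by 1.05 to 2.39. The genes Abca9, Abca5, Map2k6 and Sox9 rose on chromosome 11, 109917556 to 112601843, and Krba1, Zfp467, Zfp862-ps and Rarres2 on chromosome 6, 48346356 to 48499556. The only run downwards was that of Kif20b, Rpp30, Ankrd1 and Pcgf5 on chromosome 19, 35008519 to 36520961. Close copies such as the chemokines may share probes, and some noncoding members may be read from 1 transcript.

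The same contrast was read in cells labelled KO for values side by side. There 1490 of 12556 genes changed (11.9%), 952 higher (7.58%) and 538 lower (4.28%). Since each density is 1 sample under either label, and the KO arrays lay on other slides and scans, genotype, slide and scan cannot be told apart and no difference was tested. Mitosis genes gave a median of -1.48 under the WT label and -0.24 under the KO label, with 52 and 1 of 62 lower. Cdk1 gave -1.81 and -0.48, and the mitotic kinase Plk1 -1.43 and -0.14. DNA replication gave -1.34 and -0.64, with 37 and 7 of 46 lower. The targets of YAP and TAZ were alike in their counts, with 12 of 30 lower under both labels and medians of -0.66 and -0.71, Ccn2 giving -5.77 and -3.25. Small proteoglycans gave 2.25 and 2.19 and ribosome biogenesis -0.75 and -0.77. Fibrillar collagens gave 0.56 and 1.39, Col1a1 being at 0.50 and 2.16. Interferon-stimulated genes gave 1.17 and 0.55, with 28 of 45 and 10 of 40 higher, lysosomal genes 0.70 and 0.04, and adipogenic genes 0.88 and -0.15.

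**Figure D5:**
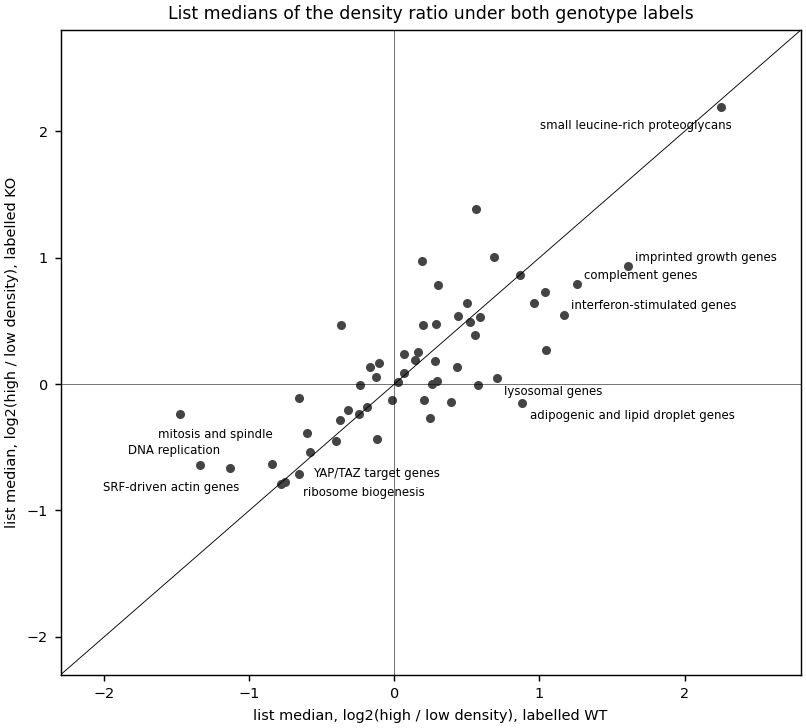
Median density ratio (log2) of each of the 56 lists in cells labelled WT (x axis) and in cells labelled KO (y axis), with the line of equal values. Small leucine-rich proteoglycans lie near that line at 2.25 and 2.19, whereas mitosis genes lie off it at -1.48 and -0.24 and adipogenic genes at 0.88 and -0.15.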

How the data were processed

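Total RNA of MEFs at low and high density was labelled with Cy3 and Cy5 and hybridised to 4 Agilent 2-colour arrays, of which the 2 labelled WT, a dye swap, carry the report. The deposited spot intensity values came from Agilent Feature Extraction 10.5.1.1 (submitters' processing notes) with mm8 annotation. The series matrix, a log10 ratio by the authors, served as an alternative. Intensities were background-corrected (normexp, offset 50) and loess-normalized within arrays with limma 3.58.1 in R 4.3.3. The swapped array's sign was turned, flagged spots were left out and features of 1 probe were averaged. Single-channel signals were quantile-normalized between all 4 arrays. Python 3.11.15, pandas 2.3.3, numpy 2.4.6 and matplotlib 3.10.9 did the rest. Of 27484 array symbols, 19942 matched RefSeq names (GRCm38.p6). The call rule (mean of at least 2-fold, same sign on both arrays) was run on simulated data as a check of the code. The simulation held dye-swap noise only and no changes near the threshold. It therefore cannot show how the rule fares with dye bias or spread between cultures. With 1 sample a density no p-value was computed. Members and lists were chosen with earlier results of these data known. Named genes were the leading members of each list, up to 4 with the largest ratios, the 10 largest rises and falls outside the lists, and the 8 largest bounds each way. Some of them are not reported here, and a few others appear in the neighbour runs and in the marker lists.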

Additional observations from a re-analysis of the deposited data

Results flagged for a closer look

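Of the 372 named genes, many of them chosen for large ratios under the WT label, 131 changed under both genotype labels, and 10 of these (7.63%) changed in opposite directions, on both arrays of each label. Over all 11795 genes whose probe was tested under both labels, 777 changed under both, and 31 of these (3.99%) in opposite directions. These differences were not tested, since each density is 1 sample and genotype, slide and scan cannot be told apart. Each pair of values is the log2 ratio of high over low density labelled WT and then labelled KO. Lower with density under the WT label and higher under the KO label were matrix genes, namely Fbln2 (-2.19 and 1.28), Fn1 (-1.60 and 1.03) and Col5a1 (-1.13 and 1.29). Higher under the WT label and lower under the KO label were the fibulin Efemp1 (3.47 and -1.82), the proteases Adamts1 (4.25 and -2.02) and Adamts5 (1.46 and -1.63), the lipid genes Plin4 (4.37 and -3.63) and Fabp4 (1.37 and -1.08), Aldh1a7 (2.41 and -2.75) and Igfbp5 (6.38 and -1.36).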

How the results depend on the processing

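The number of changed probes was 3012. It was 5829 with Agilent's processed signals, 5824 with the series matrix and 8578 at a 1.4-fold threshold. The 5829 and 5824 lack the added offset of 50, and 3869 were called with an offset of 16. It was 3191 under median centring, 2766 among probes detected in each of the 4 channels, and unchanged at 3012 with no filter on signal. With 1 array of the pair left out at a time it was 3066 to 3073. The share of higher calls went from 57.1% to 43.9% under median centring, the only setting tried that turned it, and was 55.9% to 58.0% with 1 array left out. Of 54 lists with a direction, 41 kept it under median centring, 39 with no filter, 50 among those detected in each channel and 53 with the mean of a gene's probes, and none turned under these settings. Of the 270 changed genes that were named, 259 passed under median centring, 258 with the mean of a gene's probes, and 265 and 267 without the first or the second array. Those lost, as far as they are reported here, were H19, Tnfaip6, Dtx3, Bnip3, Bnip3l, Ndufa13, Ndufb11, Ndufv3, Hoxa2 and Hoxa7 under median centring, Lin9, Spry2, Lats2, Pard6b, Col5a1, Vcan, Adamts2, H2-M3, Pcgf5, Map2 and Akr1c19 with the mean of probes, Tnfaip6, Dtx3, Bnip3, Bnip3l and Ndufv3 without the first array, and Slc2a1 and Hoxa7 without the second. The call of Akr1c19 was lost and its sign turned, from -1.74 to 0.55, when detection in all channels was asked for, since another probe was then read. The t-test of the study's methods was not run, because 1 sample per density allows none. The slide could not be a block, since both arrays labelled WT shared it. No paired analysis was possible because no group had more than 1 sample. Signals close to background limit the ratios of dim genes, which are bounds where 1 density was not detected.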
